A study of Mus musculus with 8 samples.

Results

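Mitochondrial ribosomal proteins, encoded by nuclear genes with the symbols Mrpl (large subunit) and Mrps (small subunit), were followed in the kidneys of 4 aged and 4 adult mice. The members were all protein-coding genes whose symbol is Mrpl or Mrps followed by a digit, without pseudogenes, which gave 77 of the 30146 genes in the deposited table. All 77 passed a filter of at least 1 TPM on average over the 8 libraries. The rule used names and no measured values. The mice were C57/BL6 animals that carry a human gene, the angiotensin receptor type 1 in its second haplotype (Hap-II), described as hypertensive and overexpressing the receptor, and both age groups were on a western diet. There were 4 animals per group, and 1 kidney library was analysed from each. The ages themselves, the promoter of the transgene and the duration of the diet are not stated in the labels. Every group carries the transgene and the diet, so neither is tested here. The values are TPM, a relative abundance corrected for transcript length, so genes can be compared by level, but the read depth behind each value is unknown. The question asked of the members was how their transcripts differ with age in kidneys under this diet.

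Mitochondria have ribosomes of their own, which are assembled from ribosomal RNA made inside the organelle and from proteins that are made in the cytosol and imported. These ribosomes translate only the few messages of the mitochondrial genome, all of them for parts of the respiratory chain or of ATP synthase. Some of the proteins descend from those of bacterial ribosomes and others were added during the evolution of mitochondria. The kidney, above all the proximal tubule, is rich in mitochondria, which drive the reabsorption of salt and solutes.

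Promoters are shown for 4 members that had higher values in every adult than in every aged library. They were picked because each holds a motif of a factor known for nuclear genes of mitochondrial function. Such motifs stood in a larger share of member windows than of all windows. Of the other members with no overlap between the ages, Mrpl22, Mrpl27 and Mrpl34 also hold a motif, while Mrpl11, Mrpl24 and Mrpl28 hold none. RefSeq windows on GRCm38.p6, from 250 bases before to 50 after the annotated start, were found for 68 of the 77 members, with 74 windows. The letters searched on both strands were GCGCANGCG for NRF1, CCGGAAG for GABPA and AAGATGGCG for YY1. An NRF1 match can overlap an NRF1 match on the other strand, and the end of the GABPA letters can overlap the start of the YY1 letters. Each window counts once per motif. The windows shown lie on chr11:120484387-120484686 (plus strand, Mrpl12), chr7:105811038-105811337 (minus strand, Mrpl17), chr11:115403502-115403801 (plus strand, Mrpl58) and chr11:5707652-5707951 (minus strand, Mrps24), are written 5′ to 3′, and have the matches in capitals.
Mrpl12: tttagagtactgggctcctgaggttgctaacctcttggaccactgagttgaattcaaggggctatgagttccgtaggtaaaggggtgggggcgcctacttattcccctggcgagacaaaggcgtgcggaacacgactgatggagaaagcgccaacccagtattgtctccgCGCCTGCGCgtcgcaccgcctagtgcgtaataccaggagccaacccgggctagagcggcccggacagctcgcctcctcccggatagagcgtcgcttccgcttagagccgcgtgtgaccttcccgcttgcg
Mrpl17: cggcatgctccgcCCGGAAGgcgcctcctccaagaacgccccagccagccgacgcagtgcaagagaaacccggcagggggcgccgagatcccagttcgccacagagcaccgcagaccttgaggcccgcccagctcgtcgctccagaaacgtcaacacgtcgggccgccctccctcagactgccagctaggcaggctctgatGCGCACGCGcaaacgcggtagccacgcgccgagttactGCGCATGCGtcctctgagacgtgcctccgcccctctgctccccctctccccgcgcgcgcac
Mrpl58: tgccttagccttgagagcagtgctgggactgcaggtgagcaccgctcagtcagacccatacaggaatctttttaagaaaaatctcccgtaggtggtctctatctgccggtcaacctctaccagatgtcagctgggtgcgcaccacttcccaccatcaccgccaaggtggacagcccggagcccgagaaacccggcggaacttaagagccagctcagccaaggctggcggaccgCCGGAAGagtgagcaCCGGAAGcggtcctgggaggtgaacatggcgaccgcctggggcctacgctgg
Mrps24: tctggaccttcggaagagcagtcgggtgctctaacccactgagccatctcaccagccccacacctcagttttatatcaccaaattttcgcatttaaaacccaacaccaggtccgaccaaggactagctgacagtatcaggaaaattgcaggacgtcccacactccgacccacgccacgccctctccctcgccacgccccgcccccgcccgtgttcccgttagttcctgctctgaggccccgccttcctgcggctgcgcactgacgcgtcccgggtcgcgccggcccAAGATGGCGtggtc

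The Mrpl12 window holds an NRF1 match on its other strand, the Mrpl17 window 2 NRF1 matches and 1 GABPA match, the Mrpl58 window 2 GABPA matches and the Mrps24 window 1 YY1 match after the annotated start. The NRF1 letters occurred in 16 of 74 member windows (21.6%), against 6.25% of all 32851 windows. The GABPA letters occurred in 25 member windows (33.8%), against 8.86% of all windows, and the YY1 letters in 8 (10.8%), against 1.40%. At least 1 of the motifs stood in 41 member windows (55.4%), against 14.8% of all. Member windows also had more CG dinucleotides, with a median of 21.5 against 7 in all windows, and the part of base composition in these shares was not tested. A match is a description of the letters, and no binding was measured.

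The libraries differed in ways that the age groups do not name. Transcripts of 4 Y-linked genes (Uty, Ddx3y, Eif2s3y, Kdm5d) summed to 34.7 to 50.6 TPM in kidneys 3 and 4 of each age, against 0.485 to 2.30 TPM in kidneys 1 and 2. The labels do not name this split, which is balanced over age. Each library had 10663 to 12293 genes with 1 TPM or more. The summed level of each of 9 kidney, blood, fat and urothelial marker lists overlapped between the age groups, including the proximal tubule list of 10 genes, at 1327 to 4664 TPM in aged and 1790 to 5942 TPM in adult kidneys. Leukocyte markers, 6 genes, summed to 33.4 to 66.4 TPM in aged and 16.1 to 35.0 TPM in adult kidneys. The sum came mostly from the plasma cell gene Jchain (mean 27.6 TPM, log2 fold change 1.18). Of the others, Ptprc was at −0.013, Cd68 at −0.14, Adgre1 at 0.16 and Cd79a at 0.23, and Cd3e was not tested. Red cell markers, 5 genes, summed to 933 to 14661 TPM in aged and 2700.5 to 10648.5 TPM in adult kidneys, with log2 fold changes of −1.44 to −0.95. None of the marker genes tested passed, and the part of other cells in the member values was not tested. Cd3e, Adipoq, Plin1, Cidec, Lep, Upk1b, Upk2 and Krt5 fell below the filter of 1 TPM and have no test. None of the 51 markers was at 0 in every library. Fewer cells of a type and less RNA per cell cannot be told apart in whole kidney.

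As a set, the members held a smaller share of the aged libraries. Their summed TPM was 5066, 5188, 4061 and 4545 in aged kidneys 1 to 4, against 5519.8, 6859.6, 6012 and 5266 in adult kidneys 1 to 4. Every aged library lay below every adult one, although aged kidney 2 and adult kidney 4 differed by little. The sum averaged 4715 ± 518 TPM in aged and 5914 ± 702 TPM in adult kidneys (SD, n = 4 each), which was 20.3% lower in aged kidneys, and it made up 0.471% of the TPM scale in aged and 0.591% in adult kidneys. The TPM of the median member was 44.0, 47.1, 33.3 and 42.8 in aged kidneys 1 to 4, against 55.7, 59.5, 51.3 and 53.8 in adult kidneys 1 to 4, again with no overlap. No p is given for sums or medians over members, since the set was chosen with results of these data known.

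The same libraries differed in the transcripts that these ribosomes translate. The 13 protein-coding genes of the mitochondrial genome held 32.9, 26.8, 46.9 and 37.1% of the TPM scale in aged kidneys 1 to 4, against 20.9, 19.6, 24.5 and 26.1% of the TPM scale in adult kidneys 1 to 4, with every aged library above every adult one. Per TPM of the members there were 64.8, 51.6, 116 and 81.6 TPM of mitochondrially encoded transcripts in aged kidneys 1 to 4, against 37.9, 28.5, 40.7 and 49.5 TPM of mitochondrially encoded transcripts in adult kidneys 1 to 4. Since TPM is scaled to a fixed total, more of one class leaves less for all others. Counted per 1000 TPM outside the mitochondrially encoded genes, the members held 8.33, 7.80, 8.43 and 8.02 in aged kidneys 1 to 4, against 7.68, 9.41, 8.68 and 7.76 in adult kidneys 1 to 4. These groups overlapped, and their means were 8.14 ± 0.291 in aged and 8.38 ± 0.822 in adult kidneys (SD, n = 4 each). The difference in summed level was present as a share of all transcripts and within the spread between kidneys as a share of nuclear ones. With mitochondrially encoded genes removed, the members' median log2 fold change, aged over adult, was −0.069, beside 0.14 over all genes. The part of the mitochondrially encoded share in the members' difference was not tested. Values with those genes removed are given beside the deposited scaling below.

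**Figure D1:**
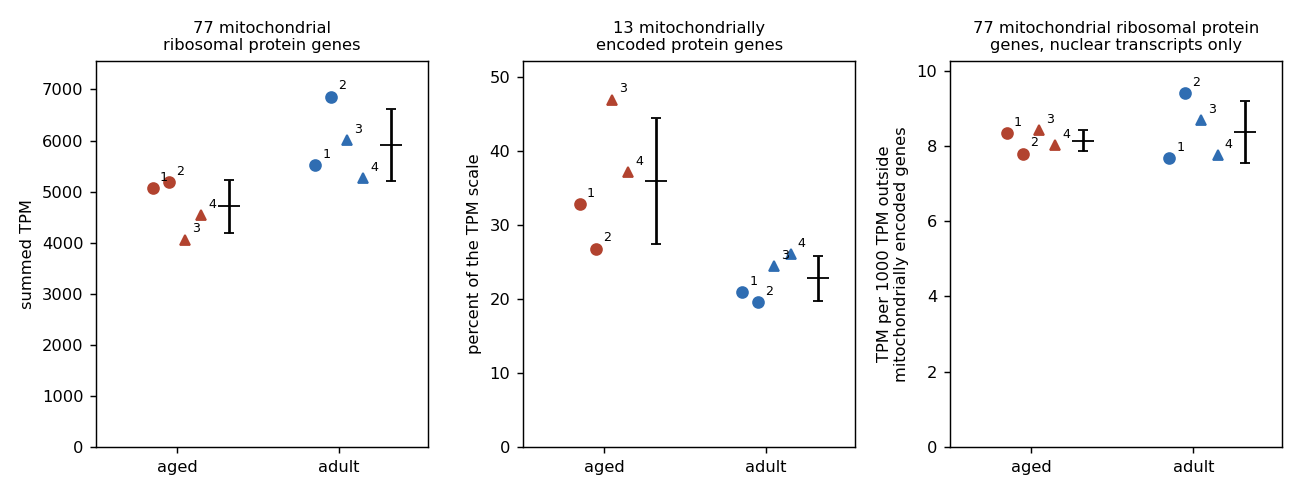
Summed level of the 77 members in TPM (left), share of the 13 mitochondrially encoded protein genes in percent of the TPM scale (middle) and members per 1000 TPM outside mitochondrially encoded genes (right), for aged and adult kidneys numbered as in the labels. Circles are kidneys without and triangles kidneys with Y-linked transcripts, and bars are mean ± SD of 4. The members' sums do not overlap on the left, while on the right aged kidneys at 7.80 to 8.43 lie within the adult range of 7.68 to 9.41.

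Gene by gene, 72 of 77 members had a negative log2 fold change, and none passed the test. Fold changes are aged over adult on the log2(TPM + 1) scale, and the test was limma over all 11796 genes with Benjamini-Hochberg adjustment. Of all genes 0% passed at an adjusted p under 0.05, and every member had an adjusted p of 1.00. An unadjusted p under 0.05 was found for 9 members, all lower in aged kidneys, against 2.76% of all genes for lower and 0.636% for higher. That count of 9 was 5 with size factors, 2 under quantile scaling and 0 without mitochondrial genes. It was 0 without adult kidney 2 and 1 without aged kidney 3 or aged kidney 4. Over all genes and both directions, 400 had such a p as deposited. That number was 813 with size factors, 755 under quantile scaling and 517 without mitochondrial genes. It was 209 without adult kidney 2, 248 without aged kidney 3 and 239 without aged kidney 4. The members' median log2 fold change was −0.34, with a range from −0.64 to 0.17, beside −0.11 over all genes, of which 65% were negative.

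**Figure D2:**
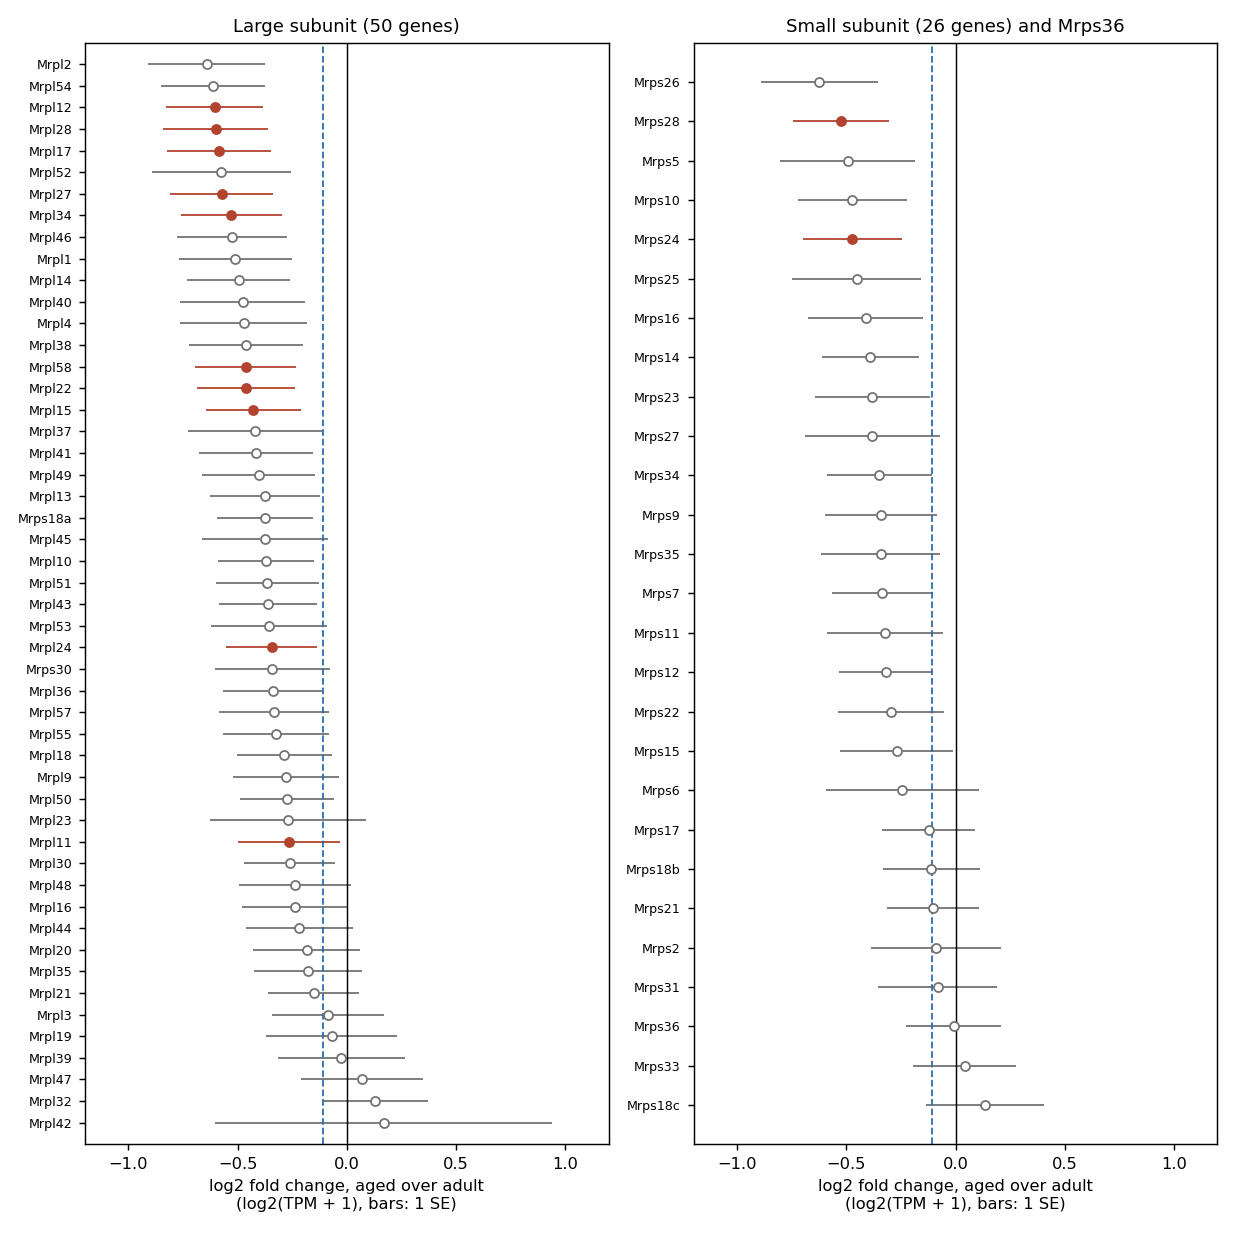
Log2 fold change of each member, aged over adult, on the log2(TPM + 1) scale with 1 SE from limma, for the large subunit (left) and the small subunit with Mrps36 (right). Filled red points are the 12 members whose aged libraries all lie below the adult ones, and the dashed line is the median of all genes, −0.11. Most points lie left of that line, and 5 lie right of 0.

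The member median lay below that of all genes under every scaling tried, while its own size depended on the scaling. With size factors the member median was −0.25 and that of all genes −0.017. With quantile normalization the values were −0.13 and 0.0080. With mitochondrially encoded genes removed and TPM rescaled they were −0.069 and 0.14, and 51 of 77 members were negative there. The members are short, with a median transcript length of 849.5 bases against 1286 over all genes tested, and with each library's trend with length removed the medians were −0.20 and −0.0023. The member median minus that of all genes was between −0.24 and −0.13 under these scalings.

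**Figure D3:**
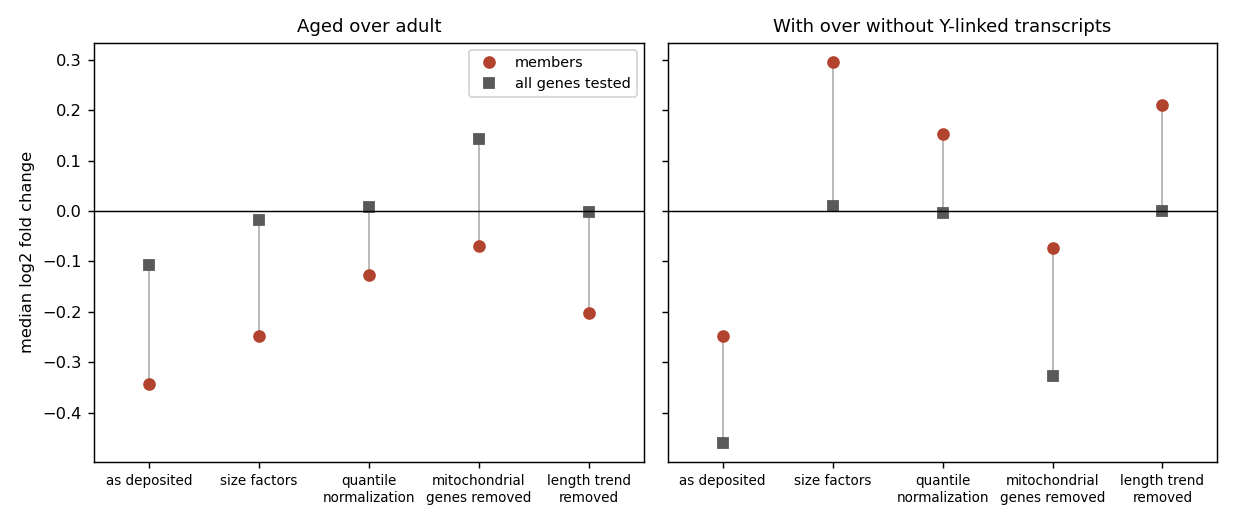
Median log2 fold change of the 77 members (red circles) and of all genes tested (grey squares) under 5 scalings, for aged over adult kidneys (left) and for kidneys with over those without Y-linked transcripts (right). On the left the members lie below all genes under each scaling, from −0.34 as deposited to −0.069 with mitochondrial genes removed. On the right they lie above all genes, on different sides of 0.

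No aged library overlapped an adult one for 12 members, all lower in aged kidneys, against 2.11% of all genes lower and 0.348% higher. The count rests on the deposited scaling. With size factors 3 members did not overlap, after quantile normalization 2 and without mitochondrial genes 1, against 2.60%, 1.87% and 0.552% of all genes, and of the original 12 only Mrpl27 was among them, in the setting without mitochondrial genes. Mrpl2 and Mrpl45, with size factors and in the quantile setting, and Mrpl38, with size factors, were the others. The 12 were 10 of the 50 members of the large and 2 of the 26 of the small subunit. By ancestry they were 11 of the 43 members with a bacterial homologue and 1 of the 33 specific to mitochondria. The median log2 fold changes of those 43 and 33 genes were close, at −0.34 and −0.36.

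Among large subunit members, Mrpl12, the protein of the stalk to which translation factors bind, had the smallest unadjusted p of the set. It lies on chromosome 11 at 120484613 to 120489065 (GRCm38). Its values were 213, 186, 143 and 169.8 TPM in aged kidneys 1 to 4, against 247, 324, 279.8 and 231 TPM in adult kidneys 1 to 4 (log2 fold change −0.60, SE 0.22, limma model across all genes, unadjusted p = 0.0195). The aged values all lay below the adult ones, and aged kidney 3 was the lowest. Mrpl28, which also has a bacterial homologue, had 109.8, 90.2, 74.0 and 76.6 TPM in aged kidneys 1 to 4, against 109.8, 159, 157 and 110.2 TPM in adult kidneys 1 to 4 (log2 fold change −0.60, SE 0.24). Aged kidney 1 and adult kidney 1 were equal at the precision shown, the aged value being marginally lower. Mrpl17, whose promoter is shown above, had 105, 102, 68.7 and 70.6 TPM in aged kidneys 1 to 4, against 132, 151, 122 and 109.7 TPM in adult kidneys 1 to 4 (log2 fold change −0.58, SE 0.24). Mrpl27, whose bacterial homologue reaches into the centre where peptide bonds are formed, had 95.4, 96.1, 62.5 and 71.8 TPM in aged kidneys 1 to 4, against 116, 149, 111 and 107 TPM in adult kidneys 1 to 4 (log2 fold change −0.57, SE 0.24). In both genes aged kidneys 3 and 4, which have Y-linked transcripts, were the lowest.

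Mrpl34, homologue of a small protein of the bacterial large subunit, had 70.7, 77.3, 50.1 and 71.3 TPM in aged kidneys 1 to 4, against 104, 107, 78.1 and 99.0 TPM in adult kidneys 1 to 4 (log2 fold change −0.53, SE 0.23). Mrpl58, a peptidyl-tRNA hydrolase that also frees stalled ribosomes, had 95.1, 104, 64.5 and 77.1 TPM in aged kidneys 1 to 4, against 112, 137, 107 and 111 TPM in adult kidneys 1 to 4 (log2 fold change −0.46, SE 0.23). It was the only one of the 12 without a bacterial ribosomal homologue. Mrpl22, which lines the exit tunnel of the growing chain in bacterial ribosomes, had 44.7, 42.4, 35.5 and 47.2 TPM in aged kidneys 1 to 4, against 54.0, 74.0, 53.1 and 55.1 TPM in adult kidneys 1 to 4 (log2 fold change −0.46, SE 0.23). Mrpl24, found near the tunnel exit there, had 81.4 ± 9.59 TPM in aged and 103 ± 8.81 TPM in adult kidneys (SD, n = 4 each), and Mrpl15 38.4 ± 3.59 TPM in aged and 52.1 ± 6.33 TPM in adult kidneys. In each of these 5 the gap between the groups was narrower than the range within either group. Mrpl11, the base of the stalk, was a low member, with 6.20, 5.79, 5.49 and 6.12 TPM in aged kidneys 1 to 4, against 6.36, 8.89, 7.03 and 7.03 TPM in adult kidneys 1 to 4. Its highest aged value lay close to its lowest adult one.

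**Figure D4:**
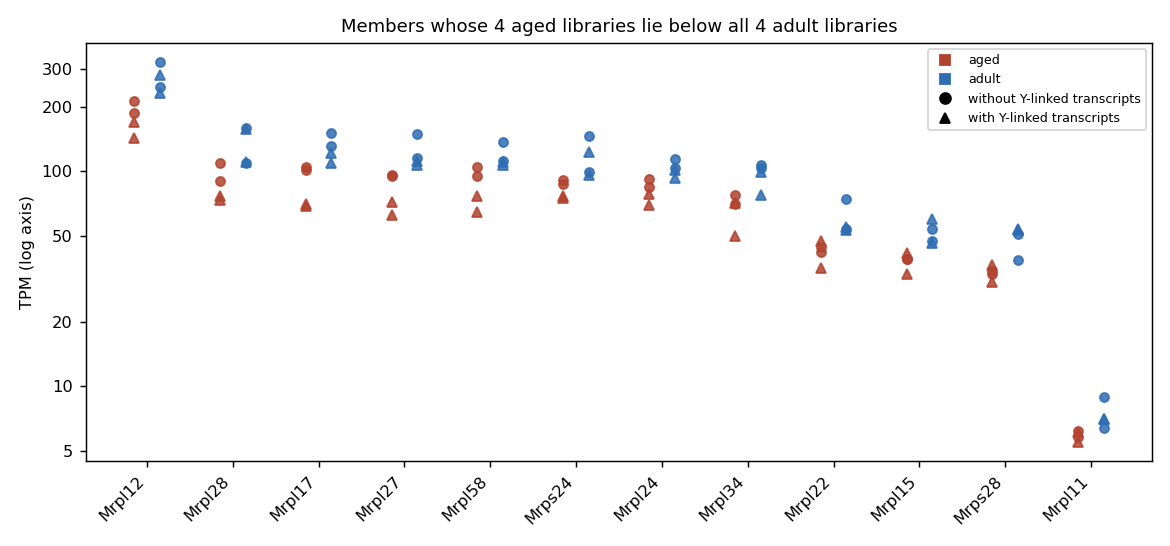
TPM on a log axis in every library for the 12 members whose aged libraries (red) all lie below the adult ones (blue), ordered by mean level. Circles are kidneys without and triangles kidneys with Y-linked transcripts. Mrpl12 is highest, at 143 to 213 TPM in aged and 231 to 324 TPM in adult kidneys, and for Mrpl28 and Mrpl11 the groups nearly touch.

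In the small subunit, Mrps28 and Mrps24 were the members without overlap. Mrps28, related to a bacterial protein that holds the message, had 34.5, 33.3, 36.6 and 30.6 TPM in aged kidneys 1 to 4, against 38.7, 51.4, 53.3 and 53.8 TPM in adult kidneys 1 to 4 (log2 fold change −0.52, SE 0.22). Adult kidney 1 stood close to the aged values and apart from the other adult ones. Mrps24, the homologue of the bacterial protein at the entry of the message channel, had 87.1, 90.9, 77.1 and 75.3 TPM in aged kidneys 1 to 4, against 99.3, 146, 124 and 96.2 TPM in adult kidneys 1 to 4 (log2 fold change −0.47, SE 0.23). Mrps26, a protein without bacterial homologue, had a similar fold change with overlap, at 32.6, 34.3, 19.5 and 27.3 TPM in aged kidneys 1 to 4, against 46.1, 56.5, 33.0 and 41.2 TPM in adult kidneys 1 to 4 (log2 fold change −0.62, SE 0.27). Adult kidney 3 fell within the aged range.

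The remaining members among the 10 with the smallest unadjusted p were of the large subunit. Mrpl2, which lies close to the catalytic centre in bacterial ribosomes, had the most negative fold change of all members, at 46.9, 62.8, 29.9 and 42.6 TPM in aged kidneys 1 to 4, against 83.3, 75.4, 55.9 and 65.5 TPM in adult kidneys 1 to 4 (log2 fold change −0.64, SE 0.27). Mrpl54 had 132, 110.3, 88.8 and 87.1 TPM in aged kidneys 1 to 4, against 127, 195, 163 and 154 TPM in adult kidneys 1 to 4 (log2 fold change −0.61, SE 0.24), where aged kidney 1 was above adult kidney 1. Mrpl14 had 76.0 ± 9.62 TPM in aged and 109 ± 23.6 TPM in adult kidneys (SD, n = 4 each, log2 fold change −0.49).

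The levels of the members spanned a wide range, from 2.23 to 526 TPM on average over the 8 libraries, with a median of 48.5 TPM, beside 7.69 TPM for the median of all genes tested. Between 10 and 100 TPM lay 53 members, above 100 TPM 17 and below 10 TPM 7. Proteins of 1 particle thus had transcripts at unequal levels. Mrps21 alone made up 9.90% of the summed level, and the 5 highest members 24.3%. Mrps21, homologue of a small basic protein of the bacterial small subunit, had 471, 563, 477 and 507 TPM in aged kidneys 1 to 4, against 423, 593, 646 and 526 TPM in adult kidneys 1 to 4 (log2 fold change −0.10, SE 0.21). The groups overlapped, and its fold change lay above 0 with size factors (0.00099), quantile normalization (0.27), mitochondrial genes removed (0.19) and the length trend removed (0.081). Mrpl12 was next in level, followed by Mrpl30 with 180.4 ± 25.3 TPM in aged and 216 ± 21.1 TPM in adult kidneys (log2 fold change −0.26, but 0.040 after quantile normalization and 0.026 without mitochondrial genes), Mrps36 and Mrpl20. Mrpl30 and Mrps36 differed by less than their spread over the 8 libraries, as did Mrps36 and Mrpl20. Mrps36, which despite its symbol belongs to the α-ketoglutarate dehydrogenase complex of the citrate cycle, had 174 ± 9.38 TPM in aged and 177 ± 32.8 TPM in adult kidneys (SD, n = 4 each, log2 fold change −0.0089, and 0.28 with mitochondrial genes removed). Mrpl20 had 155 ± 18.7 TPM in aged and 180.2 ± 48.0 TPM in adult kidneys (log2 fold change −0.18, and 0.10 with mitochondrial genes removed).

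The lowest members were Mrpl57, Mrpl42, Mrpl23, Mrps16 and Mrpl35. Mrpl57 had 2.16, 2.24, 1.62 and 1.43 TPM in aged kidneys 1 to 4, against 2.39, 2.65, 2.10 and 3.28 TPM in adult kidneys 1 to 4. Mrps16 had 3.50 ± 0.628 TPM in aged and 5.05 ± 1.32 TPM in adult kidneys and Mrpl35 5.25 ± 0.732 TPM in aged and 6.09 ± 0.972 TPM in adult kidneys (SD, n = 4 each). Sequence shared with other genes makes some values uncertain. All 31-base words of an Nme3 transcript occur in transcripts of the overlapping Mrps34, so the division of signal between the pair is uncertain. The value of Mrpl23 is also uncertain, because the processed pseudogene Mrpl23-ps1 on chromosome 2 shares 0.946 of its 31-base words with it and carried most of the signal. Mrpl23 itself had 1.70, 2.48, 3.59 and 3.20 TPM in aged kidneys 1 to 4, against 6.48, 1.41, 3.27 and 3.95 TPM in adult kidneys 1 to 4, and with the pseudogene added the values were 93.5, 89.6, 38.2 and 51.8 TPM in aged kidneys 1 to 4, against 101, 153, 71.4 and 78.9 TPM in adult kidneys 1 to 4. The sum was nearer the typical member and overlapped between the groups. Mrpl42 was listed at 0 in aged kidney 4 and in adult kidneys 2 and 4, and had 4.87, 2.92 and 1.10 TPM in aged kidneys 1, 2 and 3 and 1.48 and 11.2 TPM in adult kidneys 1 and 3. An exact 0 in 3 kidneys beside such values can be a failed estimate, so no mean is given.

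The 5 members with a positive fold change, named after their values were seen, were Mrpl42, Mrps18c, Mrpl32, Mrpl47 and Mrps33. Mrps18c had 151, 128, 115 and 131 TPM in aged kidneys 1 to 4, against 91.3, 158, 162 and 85.2 TPM in adult kidneys 1 to 4 (log2 fold change 0.14, SE 0.27), and Mrpl32 71.6, 69.7, 62.9 and 63.5 TPM in aged kidneys 1 to 4, against 42.2, 71.3, 75.0 and 60.9 TPM in adult kidneys 1 to 4 (log2 fold change 0.13, SE 0.24). In both, the aged values lay inside the range of the adult ones. Mrpl47 (log2 fold change 0.071) and Mrps33 (0.041) overlapped likewise, and the sign of each of the 5 turned when some single library was left out.

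Large and small subunit members were compared as groups. The 50 large subunit members, among them Mrps18a and Mrps30, which sit in the large subunit despite their symbols, had a median log2 fold change of −0.36, with 47 negative. The 26 small subunit members had a median of −0.34, with 24 negative. Summed large subunit TPM was 2752 ± 330.3 in aged and 3634 ± 384 in adult kidneys (SD, n = 4 each), with no overlap, and summed small subunit TPM was 1789 ± 188 in aged and 2103 ± 297 in adult kidneys, with overlap. The ratio of the sums, which does not depend on a common scaling of a library, was 1.60, 1.52, 1.50 and 1.53 in aged kidneys 1 to 4, against 1.78, 1.65, 1.73 and 1.77 in adult kidneys 1 to 4. All aged ratios lay below all adult ones. Without Mrpl12 and Mrps21, the highest member of each subunit, the ratio was 1.98, 1.99, 2.03 and 2.03 in aged kidneys 1 to 4, against 2.12, 1.99, 2.30 and 2.30 in adult kidneys 1 to 4, and the groups overlapped through adult kidney 2. The ratio of the median large to the median small member was 1.17 ± 0.0628 in aged and 1.22 ± 0.122 in adult kidneys (SD, n = 4 each) and overlapped. Members with a bacterial homologue, 43 genes, had a median log2 fold change of −0.34, and the 33 that are specific to mitochondria −0.36.

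**Figure D5:**
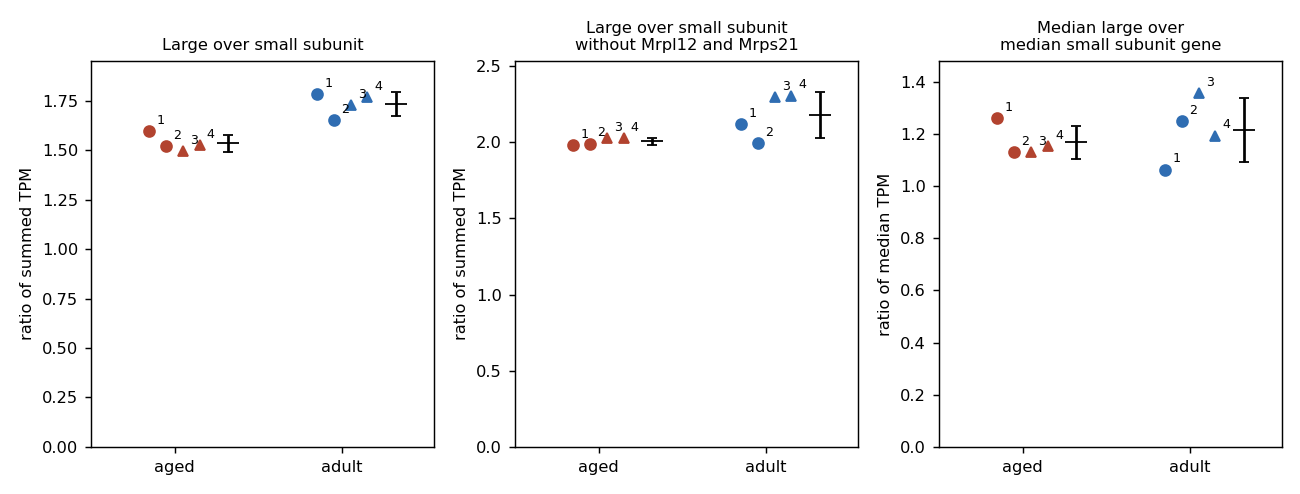
Ratio of summed TPM of large over small subunit members (left), the same without Mrpl12 and Mrps21 (middle), and ratio of the median large over the median small subunit member (right), for each aged and adult kidney. Circles are kidneys without and triangles kidneys with Y-linked transcripts, and bars are mean ± SD of 4. On the left aged kidneys lie at 1.50 to 1.60 and adult ones at 1.65 to 1.78, while in the other panels the groups overlap.

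Of the individual libraries, aged kidney 3 had the lowest value of all 8 for 48 of 76 members without a 0, and adult kidney 2 the highest for 42. The same counts were not made over all genes, so whether they are particular to the members is not known. Aged kidney 3 also had the largest mitochondrially encoded share, 46.9%, and adult kidney 2 the smallest, 19.6%. Without aged kidney 3 the member median was −0.24 (all genes 0.035), and without adult kidney 2 it was −0.28 (all genes −0.072). Other abundant nuclear-encoded sets had negative medians of similar size. Cytosolic ribosomal proteins, 82 genes tested, had a median log2 fold change of −0.40 and complex I subunits, 37 genes, −0.36. The share of genes lower in aged kidneys without overlap was 18.9% for complex I subunits, 3.66% for cytosolic ribosomal proteins and 15.6% for the members. Members summed to 0.388, 0.419, 0.416 and 0.442 TPM per TPM of complex I subunits in aged kidneys 1 to 4, against 0.420, 0.379, 0.392 and 0.415 TPM per TPM of complex I subunits in adult kidneys 1 to 4, where the groups overlapped.

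Within kidneys with and within kidneys without Y-linked transcripts, the members' age difference had medians of −0.33 and −0.33, beside −0.038 and −0.17 over all genes. The limma interaction of age and class was passed by 0 members (lowest adjusted p = 1.00) and by 0.0339% of all genes. At an unadjusted p under 0.05 in that fit there were 0 members, beside 245 of all 11796 genes. With 2 kidneys of each age in each class, this does not show that the differences were equal. With the class as a covariate in limma, 22 members had an unadjusted p under 0.05 for lower values in aged kidneys, against 7.21% of all genes, and the lowest adjusted p of a member was 0.389.

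Between the classes themselves, 1 member passed, although 11.3% of all genes were lower and 1.13% higher with Y-linked transcripts by limma adjusted p. Mrps6, homologue of a bacterial small subunit protein, had 106 ± 17.2 TPM with and 192 ± 60.5 TPM without Y-linked transcripts (SD, n = 4 each). Its log2 difference was −0.82 (SE 0.23, limma adjusted p = 0.0487). By kidney it had 204, 153, 101 and 84.5 TPM in aged kidneys 1 to 4, against 139, 272, 111 and 126 TPM in adult kidneys 1 to 4, so that kidneys 3 and 4 of each age lay below all of kidneys 1 and 2. Mrps6 was not the only member to split so, and Mrpl20 split in the other direction. The share of all genes that split was not counted. Other measures split with the class without overlap. Thick ascending limb markers, 5 genes, summed to 675 ± 149 TPM with and 1729 ± 524 TPM without Y-linked transcripts, and principal cell markers of the collecting duct, 5 genes, to 116 ± 40.8 TPM with and 259 ± 74.9 TPM without. Genes of at least 1 TPM numbered 11016 ± 401 with and 11996 ± 222 without (SD, n = 4 each). Their part in the class differences was not tested. The call was lost with size factors (log2 difference −0.25, limma adjusted p = 0.718), after quantile normalization (−0.48, 0.415), without mitochondrial genes (−0.64, 0.141), with the length trend removed (−0.36, 0.572), without the intensity trend (0.0556), with a pseudocount of 0.1 (0.0513) or 5 (0.0502), without the filter (0.0906) and with 7 of the 8 single libraries left out. With size factors and with the length trend removed another member passed in its place, in the other direction. It was Mrps18b, a small subunit protein, chosen after its values were seen, with log2 differences of 0.66 (limma adjusted p = 0.0353) and 0.56 (0.0437) there. As deposited its log2 difference was 0.10 (limma adjusted p = 0.659), with overlap between the classes. Without the filter Mrps11 was the member that passed (adjusted p = 0.0430).

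The other 7 of the 8 members with the smallest p did not pass. Mrpl52 had 77.8 ± 24.1 TPM with and 126 ± 26.1 TPM without Y-linked transcripts, Mrps35 107 ± 22.8 TPM with and 159.5 ± 23.7 TPM without Y-linked transcripts and Mrps25 29.8 ± 6.28 TPM with and 46.9 ± 11.0 TPM without Y-linked transcripts (SD, n = 4 each). Their limma adjusted p were 0.0519, 0.0540 and 0.0577. Mrps11, Mrpl45, which tethers the ribosome to the inner membrane, and Mrpl40 and Mrpl17 had log2 differences of −0.55, −0.59, −0.58 and −0.42. With size factors that of Mrps11 was 0.0035 and that of Mrpl17 0.14. As deposited, 66 of 77 members were lower with Y-linked transcripts, with a median of −0.25, beside 89.2% of all genes and a median of −0.46. With size factors 8 members were lower, with a median of 0.30 beside 0.011 over all genes. The direction of the members between the classes therefore cannot be given without naming the scaling, while their median lay above that of all genes in both. Without a filter on low values it did not, at −0.25 beside −0.25.

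Other genes of mitochondrial translation, from lists written by function, had mostly negative fold changes and none passed. Of 5 mitochondrial ribosomal proteins that carry other symbols all had negative values, with a median log2 fold change of −0.37. Gadd45gip1, a large subunit protein at the tunnel exit, had 9.98, 10.7, 7.55 and 7.57 TPM in aged kidneys 1 to 4, against 14.8, 13.4, 10.9 and 12.7 TPM in adult kidneys 1 to 4, without overlap (log2 fold change −0.49, SE 0.24). Aurkaip1 had 78.8 ± 16.7 TPM in aged and 111 ± 24.2 TPM in adult kidneys, and the GTP-binding Dap3 50.2 ± 15.8 TPM in aged and 65.1 ± 19.9 TPM in adult kidneys (SD, n = 4 each). Ptcd3 and Chchd1 had log2 fold changes of −0.16 and −0.13, which were 0.12 and 0.16 with mitochondrial genes removed. With single libraries left out Ptcd3 ranged from −0.27 to −0.018, and its value nearest 0 was without aged kidney 3, and the log2 fold change of Dap3, −0.37, from −0.56 to −0.17.

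Of 26 assembly factors 24 were negative (median −0.29). Rbfa, which matures the small subunit RNA, had 15.6, 14.6, 10.6 and 14.0 TPM in aged kidneys 1 to 4, against 28.2, 22.4, 17.1 and 19.6 TPM in adult kidneys 1 to 4, without overlap (log2 fold change −0.63, SE 0.25), and the GTPase Mtg2 8.27 ± 2.27 TPM in aged and 13.5 ± 2.53 TPM in adult kidneys (SD, n = 4 each, log2 fold change −0.66). Of 15 translation factors and related genes, Mterf1a and Oxa1l among them, 14 were negative (median −0.21). Tsfm, an elongation factor, was at −0.40 and Mtif3, an initiation factor, at −0.33. Of 19 aminoacyl-tRNA synthetases and amidotransferase subunits 18 were negative (median −0.23), with the phenylalanine enzyme Fars2 at −0.91 and Gatb at −0.40. Of 15 genes of mitochondrial transcription and RNA stability 12 were negative (median −0.074), with Hsd17b10, a subunit of the mitochondrial RNase P, at −0.50 and the exonuclease Pnpt1 at −0.31. Single libraries moved several of these values by over 1.5 times. Fars2 was at −0.52 without aged kidney 3, Tsfm at −0.18 without adult kidney 1 and −0.23 without aged kidney 1, and Pnpt1 between −0.51 without adult kidney 3 and −0.17 without adult kidney 1. Mtif3 was at −0.51 without aged kidney 2, −0.19 without aged kidney 3 and −0.22 without adult kidney 2. With mitochondrial genes removed the medians of these lists were −0.034 for assembly factors, 0.073 for translation factors and related genes, 0.037 for synthetases and 0.19 for transcription and RNA stability. Beside them stood 0.14 over all genes and −0.069 for the members. The messages themselves went the other way, with mt-Atp8 at 1.04 and mt-Atp6 at 0.81, both subunits of ATP synthase, and a median of 0.55 over 13 genes, none of which passed.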

How the data were processed

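Polyadenylated kidney RNA was sequenced after a stranded library preparation, per the labels' protocols. The authors deposited 1 TPM value per gene and library. Kallisto, DESeq2 and GRCm38 are listed without roles or order, per the submitters' processing notes. How the TPM were made, the annotation and any filter were not given in the sources used here. Of 30153 gene IDs, 29732 (98.6%) were matched to names, and 7 IDs were added to the gene of the same symbol, which left 30146 genes. Values summed to between 924798 and 950974 per library. TPM keeps no read depth, so no counting interval is given. How reads shared with pseudogenes were assigned is not stated.

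Genes with a mean of at least 1 TPM over the 8 libraries (11796 genes) were tested on log2(TPM + 1) with the R package limma 3.58.1 (R 4.3.3), allowing an intensity trend, two-sided, with Benjamini-Hochberg adjustment over all of them. A call is an adjusted p under 0.05. Fits were age alone, the class of Y-linked transcripts (summed Ddx3y, Kdm5d, Eif2s3y and Uty of at least 10 TPM) with age as covariate, and their interaction. Adding 1 TPM understates the change of low genes. The age fit was tested on simulated data with no class difference and with shifts larger than that of any member. That test does not show how the fit performs on shifts of the members' size. Replicates are single animals. The members, lists and tests were chosen with earlier results of these data known. Members named with values are those past the threshold in any fit, those whose age groups do not overlap, the 10 with the smallest p for age and the 8 for class, the 5 highest and 5 lowest by level, and those listed at 0. Up to 3 genes with the smallest p of each pathway list and all 5 ribosomal proteins with other symbols are named too. Kidney marker lists were proximal tubule, thick ascending limb, principal cell, podocyte, endothelium, red cell, leukocyte, adipocyte and urothelium. Alternatives changed the pseudocount, the filter, the scaling, the limma options, a replicate block, a class covariate and the libraries included.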

Additional observations from a re-analysis of the deposited data

Results flagged for a closer look

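A single kidney stood apart from the other 3 of its group by Dixon's test at the 95% level in 5 of the 116 groups of 4 tested, and chance gives about 1 in 20. Mrpl58 was highest in adult kidney 2, at 137 TPM, and Mrpl22 likewise, at 74.0 TPM. Mrps28 was lowest among adults in adult kidney 1, at 38.7 TPM. Mrpl42 was highest in adult kidney 3, at 11.2 TPM, where 2 of the other adult kidneys were listed at 0. Gatb, a subunit of the mitochondrial glutamyl-tRNA amidotransferase, was lowest among adults in adult kidney 3, at 36.2 TPM. All 5 were adult libraries.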

How the results depend on the processing

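Of the members' age fold changes, 0 passed under any alternative. For all genes the age count was 0 (400 at an unadjusted p under 0.05), 1 with array weights, and 0 to 2 with single libraries left out (2 without aged kidney 1, 1 without adult kidney 3). The member median was −0.13 after quantile normalization and −0.069 without mitochondrial genes, and the log2 ratio of summed TPM, −0.33 as deposited, was −0.066 and −0.042 there. Leaving out single libraries gave medians of −0.40 to −0.24, log2 ratios of sums of −0.38 to −0.25 and 12 to 23 members without overlap (19 without aged kidney 1, 23 without aged kidney 2, 21 without adult kidney 3, 20 without adult kidney 4), where the share of all genes lower without overlap was 4.24%, 5.15%, 4.37% and 3.83%, against 2.11% as deposited. That count was 3 under size factors, 2 under quantile scaling and 1 without mitochondrial genes. The log2 ratio of large to small subunit sums, −0.17, was −0.12 without Mrpl12 and Mrps21 and −0.20 to −0.16 with single libraries left out. The settings for the overlap count and the subunit ratio, and the length trend, were chosen after seeing the data. The causes were not tested. Read depth is unknown, so the counting error of the lowest members cannot be given.

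Replicate numbers shared between the groups were not taken as pairs, because the labels name no pairing. The 4 same-number correlations of deviations were 0.038, 0.181, 0.486 and 0.415. Kidneys of the same number also share the class of Y-linked transcripts, so pairing and class cannot be told apart by these values. Aged kidneys 3 and 4 correlated best with the adult kidney of their own number, and aged kidneys 1 and 2 with adult kidneys 2 (0.408) and 1 (0.572). With the replicate number as a block, 0 genes and 0 members passed for age. An unadjusted limma p under 0.05 was found there for 916 genes in either direction, and for 15 members with lower values in aged kidneys.

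Between the Y-linked classes, 1464 genes passed, against 762 with no filter, 640 under size factors, 636 under quantile scaling, 706 without mitochondrial genes, 4291 with array weights, 653 with the length trend removed and 400 to 2048 with single libraries left out. The members' count of 1 was 0 with a pseudocount of 0.1 or 5, with quantile scaling, without mitochondrial genes or without the intensity trend, 2 with at least 5 TPM, 14 with array weights and 0 to 4 with single libraries left out. Their class median, −0.25, was 0.30 with size factors, 0.15 under quantile scaling, −0.074 without mitochondrial genes, 0.21 with the length trend removed and −0.31 to −0.19 with single libraries left out. The interaction count of 4 was 0 with no filter, 2 with size factors and 2 to 16 with single libraries left out.

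Age fold changes turned sign for some genes. With mitochondrial genes removed these were Mrps6 (0.043), Mrps21 (0.19), Mrpl30 (0.026), Mrps36 (0.28), Mrpl20 (0.10), Mrpl35 (0.072), Ptcd3 (0.12) and Chchd1 (0.16). With quantile normalization they were Mrps6 (0.023), Mrps21 (0.27), Mrpl30 (0.040), Mrps36 (0.28), Mrpl20 (0.093) and Chchd1 (0.18). With size factors they were Mrps21 (0.00099) and Mrps36 (0.094). With array weights they were Mrps36 (0.037), Mrpl35 (0.028), Ptcd3 (0.057) and Chchd1 (0.0020). With the length trend removed they were Mrps21 (0.081), Mrps36 (0.17), Ptcd3 (0.0062) and Chchd1 (0.053). Mrpl42 was −0.034 with a pseudocount of 5. Leaving out single libraries gave −0.47 to 0.037 for Mrps6, −0.13 to 0.071 for Mrps36, −0.24 to 0.96 for Mrpl42, −0.042 to 0.23 for Mrpl32, −0.022 to 0.28 for Mrps18c, −0.063 to 0.18 for Mrps33, −0.14 to 0.22 for Mrpl47 and −0.39 to 0.082 for Chchd1. Between the classes, Mrps11 was 0.0035 and Mrpl17 0.14 with size factors, and Mrpl17 0.042 with the length trend removed.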
